A study of Phaffia rhodozyma with 6 samples.

Results

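The genes described are 10 genes of ergosterol formation in the yeast Phaffia rhodozyma, 9 annotated as enzymes of sterol synthesis and 1 as the protease that acts on a sterol-sensing transcription factor. They were chosen by protein identifier from the 6363 genes of the authors' deposited table, and all 10 were among the 6272 genes that the authors tested. RNA was sequenced from 6 fermenter cultures taken in late exponential growth, 3 of the strain BPAX-A1, whose genotype is given as mutagenised, and 3 of the wild-type strain CBS6938. The loci that the mutagenesis changed are not named in the labels. Both strains grew on sucrose in defined medium at pH 5.5, 20 °C and 70% dissolved oxygen. The comparison asked which transcripts differ while astaxanthin, the red carotenoid of this yeast, is formed fastest.

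The authors' deposited table gives 1 FPKM value per gene (fragments per kilobase of transcript, scaled to the number of mapped fragments) for each of the conditions q1 and q2, each taken over its cultures. No source used here says which condition is BPAX-A1, so every ratio below is q2 over q1 and none is assigned to a strain. No value of a single culture was used here, so neither the spread between cultures nor the depth of a library can be given. The error beside a log2 ratio is the standard error (SE) that the p-value of Cuffdiff, the authors' testing program, implies under a normal distribution, and each 95% interval is built from it. Cuffdiff's own test statistic, as the log2 ratio over its error, implies SEs 1.54 to 1.66 times as large for the 10 genes, so the intervals printed here are the narrower of both kinds. Whether the p-values treat the cultures as separate fermentations or as technical repeats cannot be read from the table, although the labels call them biological replicates.

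Ergosterol is the main sterol of fungal membranes, where it holds the place that cholesterol has in animals. Its synthesis begins when squalene synthase joins farnesyl pyrophosphate molecules from the mevalonate pathway. Squalene is oxidised, closed to lanosterol, stripped of its extra methyl groups and then altered at several positions of its rings and side chain. Farnesyl pyrophosphate is also the precursor of carotenoids, so in this yeast the sterol and astaxanthin routes leave the same branch point. In animals and some fungi, when sterols are scarce, the transcription factor SREBP is cut free from its membrane by proteases and raises the transcription of sterol genes.

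None of the 10 genes was called, taking the authors' q-values and a threshold of 0.05 set here. Of all tested genes 5.53% were called, made up of 3.65% called higher and 1.88% called lower under q2. At an unadjusted p below 0.05 there was 1 gene of the 10, lower under q2, where 14.6% of all tested genes passed in either direction, 10.5% with a higher and 4.13% with a lower value. As deposited, 6 of the 10 values were higher under q2 and 4 lower, beside 57.7% higher and 42.3% lower over the tested genes. The median log2 ratio of the 10 genes, with 1 FPKM added to each value, was 0.15, and that of the tested genes was 0.11. Summed over the 10 genes, the level was 951 FPKM under q1 and 975 under q2, a ratio of 1.02. In RNA from whole cultures, fewer cells that express a gene and less of its RNA per cell cannot be told apart.

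The direction of the single ratios depends on how the conditions are scaled. Over the 6106 genes at or above 1 FPKM in both conditions, the median log2 ratio was 0.11, and after subtraction of this shift 5 of the 10 genes were higher and 5 lower, beside 3150 higher and 3104 lower of the 6254 tested genes with a finite ratio. The FPKM values of all genes summed to 2.10 times as much under q2 as under q1, and 91 ribosomal protein genes held 39.0% of the sum under q1 and 61.2% under q2. Taken as shares of the total, all 10 genes were lower under q2, by 0.54 or more on the log2 scale, as were 5206 of the 6254 tested genes (83.2%). Taken as shares of the total without the ribosomal protein genes, 2 were higher and 8 lower, beside 2197 higher and 4057 lower of the tested genes (64.9% lower). Each of these scalings lowers every log2 ratio by the same number, so a gene that is lower as deposited stays lower by construction.

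**Figure D1:**
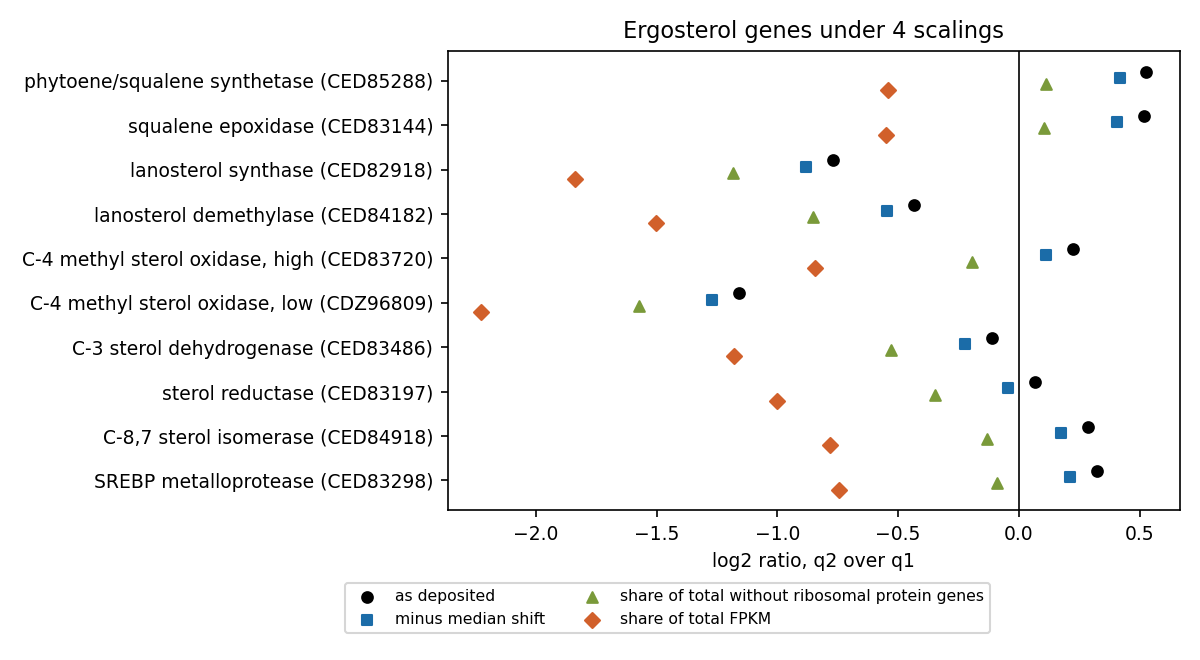
Log2 ratio of q2 over q1 (horizontal axis) for each of the 10 ergosterol genes (rows, in the order in which they are described) under 4 scalings: as deposited, minus the median shift of all genes, as a share of the total without ribosomal protein genes, and as a share of the total. The words high and low tell the C-4 methyl sterol oxidases apart by level. The share of the total puts all 10 genes below 0, with 83.2% of the tested genes, while 6 lie above 0 as deposited.

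The entry to the sterol branch is the phytoene/squalene synthetase (CED85288, scaffold 249, 1132785 to 1134141), named for a family that includes squalene synthase. In the authors' deposited table it stood at 48.5 FPKM under q1 and 70.0 under q2. The log2 ratio was 0.53 with an implied SE of 0.42 and a 95% interval from -0.30 to 1.36 (authors' deposited table, p 0.213, q 0.630). The interval therefore runs from 1.23-fold lower to 2.57-fold higher under q2. In this yeast phytoene itself is made by a separate enzyme, the phytoene-beta carotene synthase.

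Squalene epoxidase (CED83144, scaffold 52, 1423509 to 1425696) puts oxygen on squalene, the first step of the route that needs molecular oxygen. Its level in the authors' deposited table was 48.5 FPKM under q1 and 69.6 under q2, within 1% of the synthetase in each condition. The log2 ratio was 0.52 with an implied SE of 0.51 (authors' deposited table, p 0.304, q 0.712). Both genes were the highest of the 10 by log2 ratio, at ranks 1929 and 1953 from the top among the 6254 tested genes with a finite ratio. As shares of the total both had a negative ratio, -0.54 and -0.55.

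Lanosterol synthase (CED82918, scaffold 52, 777547 to 781620) closes the epoxide to the first sterol. The authors' deposited table lists it at 62.2 FPKM under q1 and 36.5 under q2, a log2 ratio of -0.77 with an implied SE of 0.53 (p 0.146, q 0.552). The 95% interval ran from -1.81 to 0.27. It was the fifth highest of the 10 genes under q1 and the seventh under q2. Against squalene epoxidase, the enzyme before it, its log2 ratio was lower by 1.29, with a 95% interval of that difference from -0.15 to 2.72 if the errors are independent.

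Lanosterol demethylase (CED84182, scaffold 69, 1943245 to 1946009) is the cytochrome P450 that removes the methyl group at carbon 14, and it is the target of azole antifungals. The authors' deposited table lists it at 161 FPKM under q1 and 119 under q2, the third highest of the 10 genes in both. The log2 ratio of -0.44 had an implied SE of 0.60, larger than the ratio itself (p 0.471, q 0.829).

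A later step, oxidation of the methyl groups at carbon 4, is annotated to 2 genes whose levels lie far apart. In the authors' deposited table CED83720 (scaffold 69, 577202 to 579079) was the highest of the 10 genes, with 299 FPKM under q1 and 349 under q2. CDZ96809 (scaffold 79, 406624 to 408256) had 24.6 and 11.0 FPKM, the ninth and the lowest level. The first therefore stood 12.2 times above the second under q1 and 31.7 times under q2. It supplied 31.5% of the summed level of the 10 genes under q1 and 35.8% under q2.

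The C-4 methyl sterol oxidases also had log2 ratios of opposite sign as deposited, 0.22 with an implied SE of 0.72 for CED83720 and -1.16 with one of 0.45 for CDZ96809. CED83720 is negative when scaled to the total, with or without the ribosomal protein genes. CDZ96809 was the only gene of the 10 with an unadjusted p below 0.05 (authors' deposited table, p 0.0104, q 0.126). Its p-based interval ran from -2.04 to -0.27, whereas the test statistic implies an SE of 0.72 and an interval from -2.56 to 0.24, which includes 0. It ranked 6007 from the top of the 6254 ratios. The difference between the log2 ratios of both genes was 1.38, with an interval from -0.28 to 3.04 if their errors are independent, which includes 0. How reads shared by both genes, if any, were divided was not stated in any source at hand.

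The C-3 sterol dehydrogenase (CED83486, scaffold 52, 2465504 to 2467184) takes off the carboxyl group that the oxidase leaves at carbon 4. In the authors' deposited table its level was 92.7 FPKM under q1 and 85.8 under q2, giving a log2 ratio of -0.11 with an implied SE of 0.54 (p 0.836, q 0.968). The sterol reductase (CED83197, scaffold 52, 1565552 to 1566760) is annotated to the family of the lamin B receptor, which in fungi holds the reductases for the double bonds at carbons 14 and 24. Its level in the authors' deposited table was 169 FPKM under q1 and 177 under q2, the second highest of the 10 in both. Its log2 ratio of 0.07 had a 95% interval from -0.79 to 0.93. The test statistic implies an SE of 0.71 and an interval from -1.33 to 1.46, which is not within a 2-fold change in either direction. It became -0.04 after subtraction of the median shift.

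The C-8,7 sterol isomerase (CED84918, scaffold 78, 1712380 to 1714425) moves a double bond within the second ring. It had 28.5 FPKM under q1 and 34.7 under q2 by the authors' deposited table, a log2 ratio of 0.29 with an implied SE of 0.43 (p 0.506, q 0.851). Of the enzymes, it and the lower C-4 methyl sterol oxidase were the ones below the median gene of the table under q1, which stood at 38.2 FPKM. Under q2, where the median gene stood at 45.1 FPKM, lanosterol synthase was below it as well.

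The intramembrane metalloprotease (CED83298, scaffold 52, 1849764 to 1852055) is annotated as the SREBP protease, the enzyme that makes the cut inside the membrane. Its level was the lowest of the 10 under q1 and the second lowest under q2, at 17.4 and 21.8 FPKM in the authors' deposited table. The log2 ratio was 0.32 with an implied SE of 0.44 and a 95% interval from -0.55 to 1.19 (p 0.465, q 0.828). As a share of the total it was -0.74, and without the ribosomal protein genes in the total -0.09. The transcript level says nothing of how much of the protease is active.

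**Figure D2:**
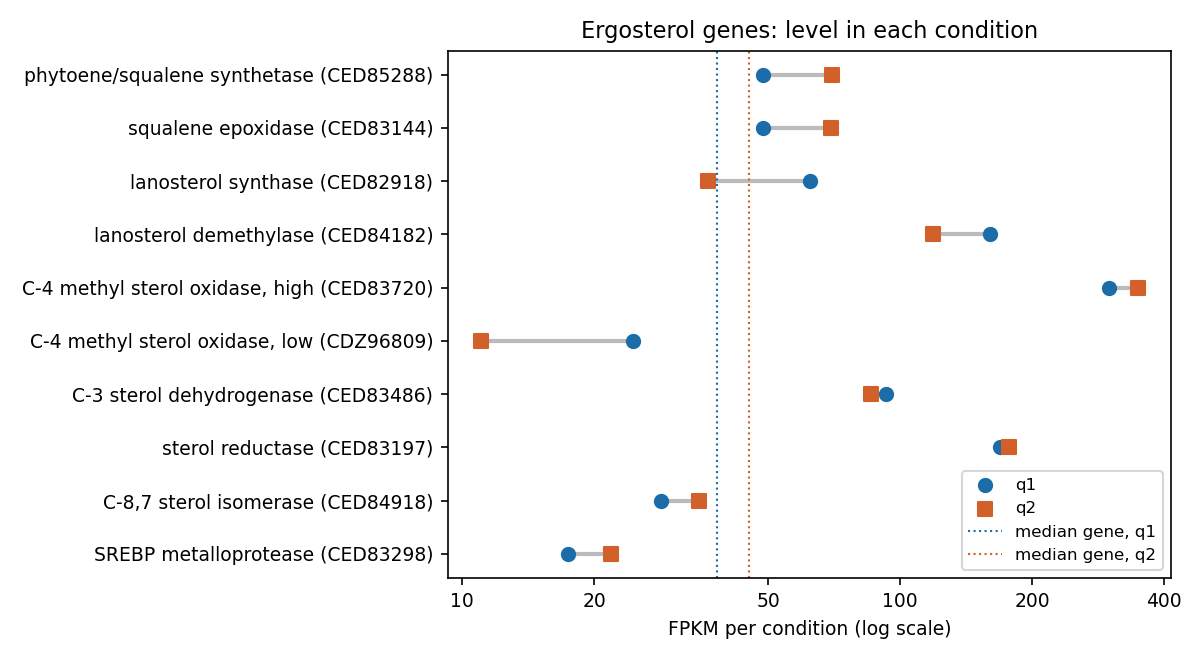
FPKM under q1 (circles) and q2 (squares) on a log axis for the 10 ergosterol genes, in the order in which they are described, with the metalloprotease last. Dotted lines mark the median gene of each condition, 38.2 FPKM under q1 and 45.1 under q2. The levels span 17.2-fold under q1 and 31.7-fold under q2, and the lower C-4 methyl sterol oxidase is the gene with the widest gap between conditions.

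The order of levels was nearly the same in both conditions. The top 4 places were held by the higher C-4 methyl sterol oxidase, the sterol reductase, lanosterol demethylase and the C-3 sterol dehydrogenase under q1 and under q2. Below them lanosterol synthase moved from the fifth to the seventh place, and the metalloprotease and the lower C-4 methyl sterol oxidase stood in reverse order at the bottom. With no value per culture, none of these neighbours in the order can be told apart beyond a spread.

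The precision of the table limits what these ratios can show. The implied SEs of the 10 genes ran from 0.42 to 0.72, with a median of 0.48, beside 0.51 over the tested genes. From the test statistic they ran from 0.69 to 1.13, with a median of 0.76. The smallest ratio called among the tested genes with a finite ratio was 2.51-fold. The widest ratio of the 10, that of CDZ96809, was 2.23-fold lower under q2, and the other 9 were at most 1.70-fold in either direction. A log2 ratio within 1 of 0 was seen for 9 of the 10 genes and for 76.9% of the tested genes with a finite ratio. The missing calls do not show that the genes had equal levels.

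**Figure D3:**
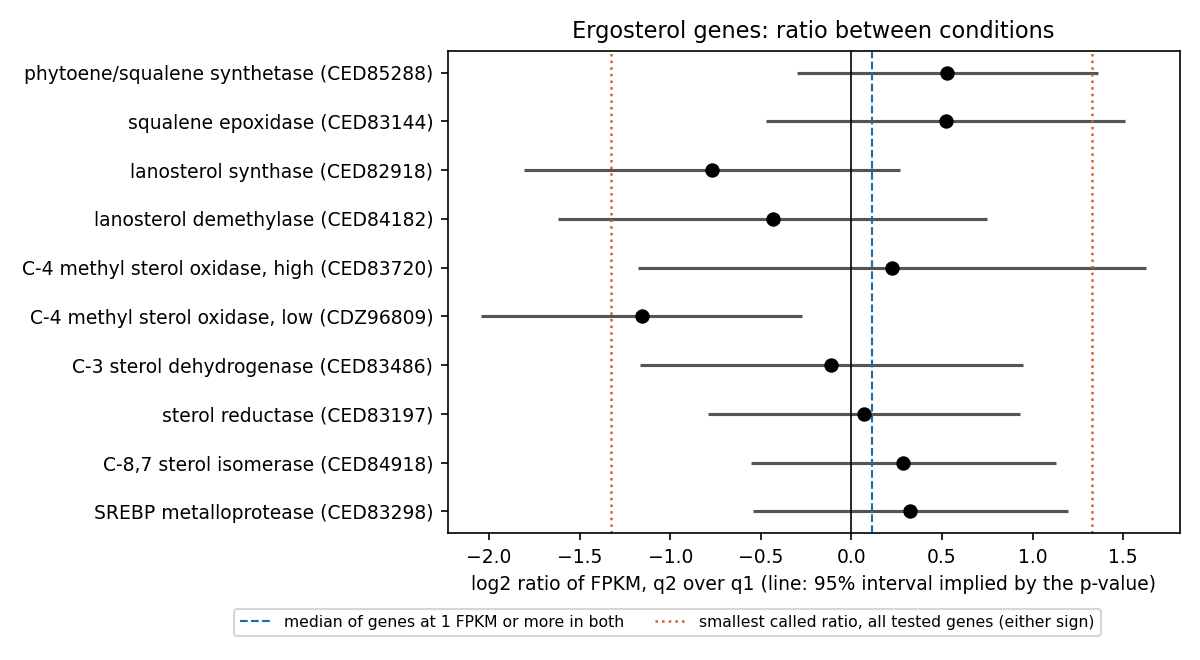
Log2 ratio of q2 over q1 as deposited (points) for the 10 ergosterol genes, with the 95% interval implied by the authors' p-value (lines). The dashed line is the median shift of 0.11, and dotted lines mark the smallest ratio called among all tested genes, 1.32 on the log2 scale. Of the 10 intervals, 9 include 0, and all 10 do with the error from the test statistic.

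The annotation also names 5 enzymes by a carbon position, without the word sterol. Their place in the later sterol route was read from these names and, for CED85128, from a gene ontology term. CED85039 also carries a sterol-specific term, that of the sterol C-24 methyl transferase. These 5 enzymes were looked for after the values had been seen, and their choice as a list is not independent of the data. None was called, and 0 of the 5 had an unadjusted p below 0.05. All 5 values were lower for q2 as deposited, with a median log2 ratio of -0.46.

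The C-24 methyl transferase (CED85039), the enzyme that adds a side-chain methyl group that cholesterol lacks, had the highest level under q1 of all these sterol enzymes. It stood at 402 FPKM under q1 and 176 under q2 by the authors' deposited table. The log2 ratio was -1.19 with an implied SE of 0.67 and a 95% interval from -2.51 to 0.13 (authors' deposited table, p 0.0771, q 0.421). Under q1 it lay above the higher C-4 methyl sterol oxidase, and under q2 below it.

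The other four had narrower ratios. The C-14 reductase (CED85474), which saturates the double bond left by the demethylase, had 132 and 95.7 FPKM by the authors' deposited table (log2 -0.46, implied SE 0.52). The C-5 desaturase (CED82095), which adds a double bond to the second ring, had 146 and 111 FPKM (authors' deposited table, log2 -0.40, implied SE 0.53). A gene named C-3 desaturase (CED85128) carries the gene ontology term for the sterol desaturase that acts at carbon 22, a cytochrome P450 in fungi. Its level in the authors' deposited table was 177 FPKM under q1 and 126 under q2 (log2 -0.49, implied SE 0.67).

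The C-24 reductase (CED83198, scaffold 52, 1566895 to 1568627), the last enzyme of the route in baker's yeast, lies 134 bases from the sterol reductase CED83197. It had 93.7 FPKM under q1 and 86.3 under q2 by the authors' deposited table, a log2 ratio of -0.12 with an implied SE of 0.49. Its neighbour stood at 169 and 177 FPKM, above it in both conditions.

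Over the 14 sterol enzymes so named, 9 had lower values under q2 as deposited and 5 higher, and 0 were called. The median log2 ratio with 1 FPKM added was -0.26 for the 14, against 0.07 for the 9 enzymes without these additions. The summed level of the 14 was 1884 FPKM under q1 and 1548 under q2. The 9 had summed to 934 and 953 FPKM, and to 635 and 603 without the higher C-4 methyl sterol oxidase. The 5 added genes summed to 950 FPKM under q1 and 595 under q2. Of these sums the C-24 methyl transferase alone held 402 and 176 FPKM.

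**Figure D4:**
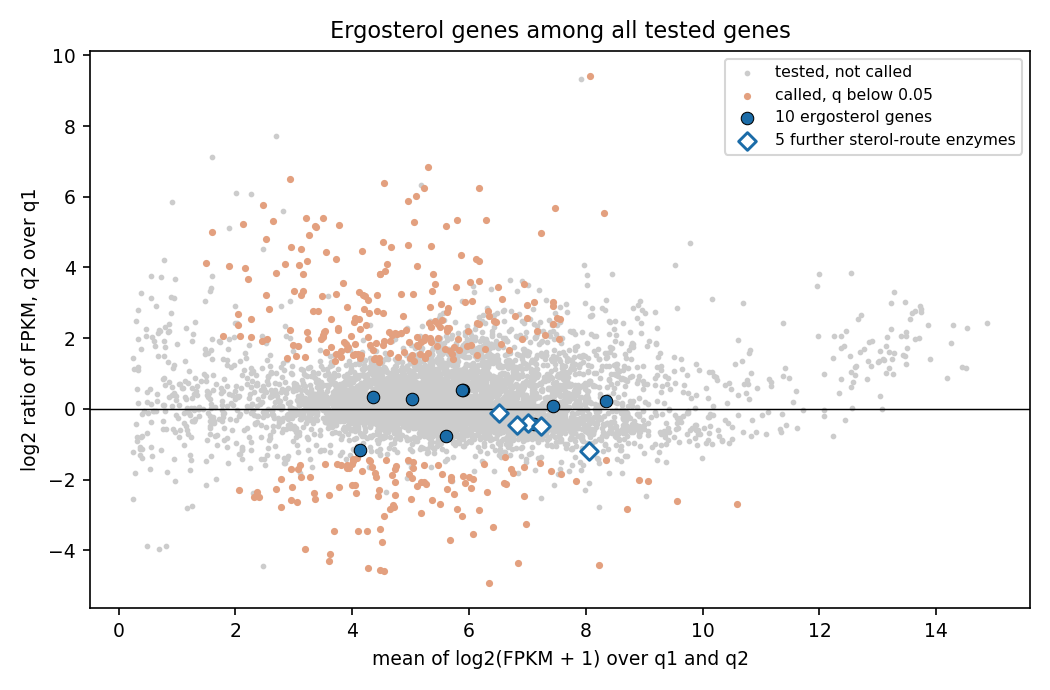
Log2 ratio of q2 over q1 (vertical axis) against the mean of log2(FPKM + 1) over both conditions (horizontal axis) for the tested genes with a finite ratio. Filled circles are the 10 ergosterol genes and diamonds the 5 further sterol-route enzymes. All 15 lie among the genes that were not called, and all 5 diamonds lie below 0.

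The genes before and beside the sterol branch were taken from lists. Of the 7 mevalonate and prenyl genes, which supply farnesyl pyrophosphate, 0 were called and 0 passed an unadjusted p of 0.05, with a median log2 ratio of -0.32. Farnesyl pyrophosphate synthase (CDZ96456), whose product squalene synthase uses, had 127 FPKM under q1 and 111 under q2 by the authors' deposited table. Those levels were 2.63 and 1.59 times that of the squalene synthetase.

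The carotenoid branch, with 6 genes, had a median log2 ratio of 1.44, beside 0.11 over the tested genes, and 0 calls. As deposited 5 of the 6 were higher under q2, and as shares of the total 4 were. Higher values with a p-value below 0.05 before adjustment were seen for 2 of the 6, beside 10.5% of all tested genes. The 2 genes were an astaxanthin synthase (CED83940) and geranylgeranyl pyrophosphate synthase (CDZ97186). The latter draws on farnesyl pyrophosphate as the squalene synthetase does, and had 96.5 FPKM under q1 and 254 under q2 by the authors' deposited table. Its level stood at 1.99 times that of the synthetase under q1 and at 3.63 times under q2. The log2 ratios of these branch-point genes differed by 0.87, with a 95% interval from -0.60 to 2.33 if their errors are independent. A second gene, named geranylgeranyl pyrophosphate synthase/polyprenyl synthetase (CED82684), had 71.9 FPKM under q1 and 126 under q2 (log2 0.81, implied SE 0.67). By the authors' deposited table, a second astaxanthin synthase (CED83052) had 7.68 and 7.31 FPKM (log2 -0.07, implied SE 0.45). The highest level of the list was that of phytoene dehydrogenase (CED83513), at 243 FPKM under q1 and 821 under q2 (authors' deposited table, log2 1.76, implied SE 1.04). The phytoene-beta carotene synthase (CED83449) had 75.6 and 215 FPKM by the authors' deposited table (log2 1.51, implied SE 0.82).

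**Figure D5:**
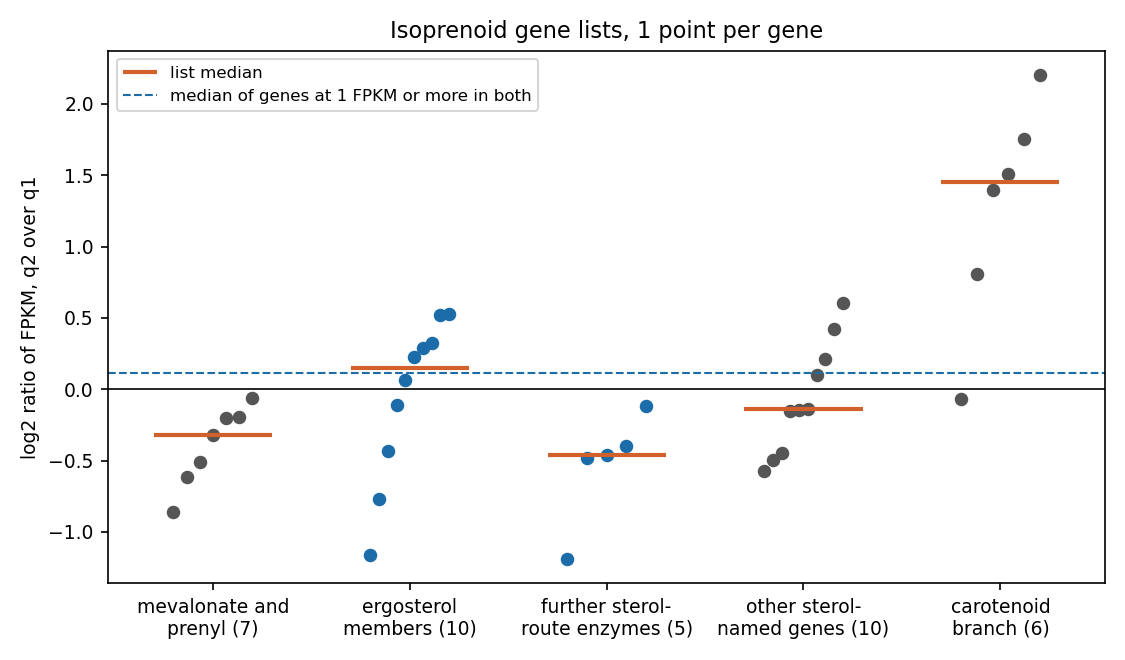
Log2 ratio of q2 over q1 as deposited for each gene (points) of 5 isoprenoid lists, with the list median (bar) and the median shift of all genes (dashed line). The 10 ergosterol genes lie on both sides of 0, the 7 mevalonate genes and the 5 further enzymes below it, and 5 of the 6 carotenoid genes above it (4 of 6 when scaled to the total).

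Of 10 other genes with a sterol word in their names, 0 were called and 0 had an unadjusted p below 0.05, with a median log2 ratio of -0.14. They comprised 5 oxysterol-binding proteins, a family that carries lipids between membranes, a Niemann-Pick C protein, a pair of predicted mitochondrial cholesterol transporters, a lipase with cholesterol esterase and the sterol O-acyltransferase. By the authors' deposited table, their log2 ratios spanned from -0.57 for the acyltransferase (CDZ96511), which stores sterols as esters, to 0.60 for the Niemann-Pick C protein (CED83371), both named after their values were seen. The highest level was that of an oxysterol-binding protein (CED85611), at 225 FPKM under q1 and 241 under q2 by the authors' deposited table.

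Several sterol enzymes draw electrons through cytochrome b5 or through the P450 reductase. Of the 4 genes named for cytochrome b5, 0 were called and 0 had an unadjusted p below 0.05. The NADH-cytochrome b5 reductase (CED82181) had 327 and 211 FPKM and a cytochrome b5 (CDZ96923) 320 and 213 FPKM in the authors' deposited table, with log2 ratios of -0.63 and -0.59. The others are named cytochrome b5 as well, CDZ97755 with 14.6 and 17.4 FPKM (log2 0.26) and CED82388 with 49.9 FPKM under q1 and a log2 ratio of 0.0047 by the authors' deposited table. The cytochrome P450 oxidoreductase (CDZ98161), which serves the astaxanthin synthase in this yeast, had 69.0 and 55.5 FPKM (authors' deposited table, log2 -0.31, implied SE 0.55). It belongs to a list of 13 genes with cytochrome P450 in their names, of which 12 were tested. Among these 1 was called higher and 1 lower under q2, beside 3.65% and 1.88% of all tested genes.

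Those called were CED84998, with 7.91 FPKM under q1 and 131 under q2 by the authors' deposited table (log2 4.05, q 0.00226), and CED85015, with 14.2 and 3.07 FPKM (log2 -2.21, q 0.00980). The authors' deposited table lists CDZ98632 at 10.4 and 27.6 FPKM, with a p-value below 0.05 before adjustment alone (p 0.0175, q 0.174). None of the 3 is annotated to a sterol step. The words acetyl-CoA acetyltransferase matched 0 genes.

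A search for the word steroid, added after the values had been seen, found 7 further genes. Of these 1 was called higher under q2, beside 3.65% of all tested genes. The called gene was a predicted steroid reductase (CDZ97443), with 74.6 FPKM under q1 and 393 under q2 by the authors' deposited table (log2 2.40, implied SE 0.80, q 0.0488). A putative steroid membrane receptor of the Hpr6.6 type (CDZ96325) had 29.5 and 185 FPKM, a log2 ratio of 2.65 with an implied SE of 1.18 (authors' deposited table, p 0.0243, q 0.219). In baker's yeast the protein of this type binds haem and supports the lanosterol demethylase. The other gene of the type (CED83115) had 63.2 and 77.3 FPKM by the authors' deposited table (log2 0.29). The 7 genes had a median log2 ratio of 0.30, beside 0.11 over the tested genes, and 1 of them was lower under q2. That was a steroid reductase of fatty acid elongation (CED85524), with 191 and 113 FPKM by the authors' deposited table (log2 -0.76, implied SE 0.62).

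None of the 10 ergosterol genes is the direct neighbour of another, and clustering along the scaffolds was not tested. In the authors' coordinates 5 lie on scaffold 52, which carries 13.5% of the genes, 2 on scaffold 69 and 1 each on scaffolds 78, 79 and 249. No genome build is named in the sources used here, and exons, introns and UTRs cannot be given. Their 20 direct neighbours lie 134 to 2864 bases away, with a median distance of 434 bases, beside 468 bases over all adjacent genes. Of these 20 neighbours 1 was called, beside 5.53% of all tested genes. It is a hypothetical protein gene (CDZ96808) next to the lower C-4 methyl sterol oxidase, with 1.49 FPKM under q1 and 6.20 under q2 by the authors' deposited table (log2 2.06, q 0.0376). Neighbours had the sign of their ergosterol gene in 10 of 20 cases as deposited, and their median log2 ratio was 0.07.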

How the data were processed

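Per the submitters' processing notes, the tools were FastQC, Trimmomatic, TopHat, Cufflinks and Cuffdiff, named without versions. The deposited FPKM values are 1 per gene and condition, and the per-sample columns numbered 0. Per the file headers, the authors' log2 ratio is q2 over q1, each with its p-value, its q-value and Cuffdiff's test statistic, a score used here only for a second estimate of the error, chosen after seeing the data. The log2 ratio was undefined or infinite for 18 tested genes. A second sheet repeats the first, with 0 differing cells, and none of the 10 genes is among the 331 of the other sheet.

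Genes were called at the authors' q-value below 0.05. The implied standard error is the absolute log2 ratio divided by the normal quantile of the two-sided p-value. List medians use log2 of values plus 1 FPKM, while ratios of single genes are the authors' and carry no pseudocount. Starts were printed as the file's start plus 1. The genes named are the 10 members, genes of fixed lists and called neighbours, and others are said to be added. Of the fixed lists, every gene that passed a threshold is named. Of the mevalonate list only farnesyl pyrophosphate synthase is named, which passed no threshold and did not have the highest level. Members and lists were chosen with earlier results of these data known. Python 3.11.15, pandas 2.3.3, NumPy 2.4.6, SciPy 1.17.1 and Matplotlib 3.10.9 were used.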

Additional observations from a re-analysis of the deposited data

How the results depend on the processing

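The median log2 ratio of the 10 ergosterol genes, 0.15 with 1 FPKM added, was 0.15 with 0.1 FPKM or none added, 0.03 after centring, 0.07 without the metalloprotease and -0.27 as a share of the total without ribosomal protein genes. As a share of the total it was -0.92. By their construction these scalings lower the log2 ratio of every gene by 1 number. With the 5 further enzymes, an alternative chosen after seeing the data, it was -0.12, and -0.26 without the metalloprotease. With the error taken from the test statistic, also chosen after seeing the data, 0 of the 10 intervals left out 0 in place of 1, and 0 in place of 1 lay within a 2-fold change. The count of called genes among the 10 was 0 at a q-value below 0.05, at one below 0.01 and over genes at or above 1 FPKM in both conditions, and 1 at an unadjusted p below 0.05. For the carotenoid list the last setting gave 2 in place of 0, and the mevalonate, other sterol and cytochrome b5 lists stayed at 0 under each setting. Over all tested genes 347 were called, 192 at a q-value below 0.01, 916 at an unadjusted p below 0.05 and 310 over genes at or above 1 FPKM. The sign changed for 1 of the 10 genes on centring, for 4 on scaling to the total without ribosomal protein genes and for 6 on scaling to the total. No paired analysis was possible because the table holds 1 value per condition, and leaving out a replicate was not run for that reason. Depth per library is unknown.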
